A study of Mus musculus with 6 samples.

Results

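The transcription factor p53, its inhibitor Mdm2, 5 further p53 targets and the 3 cyclin-dependent kinase (CDK) inhibitors p21, p27 and p15 were examined in colon epithelial cells (IECs) of mice with and without epithelial Nsd2. The 10 genes were Trp53, Mdm2, Cdkn1a, Cdkn1b, Cdkn2b, Ccng1, Sesn2, Zmat3, Phlda3 and Eda2r. They were found by their symbols in a deposited table of 55487 genes, and 10 of 10 symbols matched a single gene each. Nsd2 encodes a methyltransferase that places the dimethyl mark on lysine 36 of histone H3. Of the 6 RNA-seq libraries, 3 came from Nsd2 f/f mice, whose Nsd2 alleles carry loxP sites but stay in place, and 3 came from Nsd2 Vil-KO mice, which carry the same alleles together with Villin-Cre. The genotype labels read NSD2-FF and NSD2-FF-VILCRE, and the titles of the control libraries read WT. All libraries came from mice given dextran sodium sulphate (DSS), a polymer in drinking water that injures the colonic epithelium, so no untreated sample stands beside them. The study's methods place the mice on a C57BL/6J background, use littermates as controls, and give 2% DSS for 5 days from an age of 2 months. The day of cell isolation for RNA-seq and the floxed exons are not given in the sources used here. The Villin promoter drives Cre throughout the intestinal epithelium, so Nsd2 stays intact in any other cell of the preparation, and the cells were shaken off the colon with EDTA without a sort. Nothing in the labels says that the 3 libraries of a group came from separate animals, so p-values measure the spread between these libraries, which may be technical in part.

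p53 is a transcription factor kept scarce by Mdm2, the ubiquitin ligase that marks it for degradation. After DNA damage or other stress p53 accumulates and raises the transcription of genes that stop the cell cycle, repair DNA, alter metabolism or kill the cell, and Mdm2 is itself among those targets. CDK inhibitors of the Cip/Kip family (p21 and p27) bind cyclin-CDK complexes, while those of the INK4 family (p15) bind CDK4 and CDK6. In the colonic crypt, cells divide near the base and leave the cycle as they migrate towards the surface, where p21 and p27 are commonly found. p53 is regulated largely at the level of its protein, which RNA counts do not measure.

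A p53 site consists of a pair of half-sites, each a stretch of 10 bases with 3 purines, C, 2 bases that are A or T, G and 3 pyrimidines. RefSeq promoter windows (GRCm38.p6, 250 bases before to 50 bases after a start) were read for 9 of the 10 genes, in 10 windows. Zmat3 was not matched. A full site, taken as 2 abutting half-sites with at most 1 base off and the C and G of each core kept, was found in 2 of these windows and in 22 of all 32851 windows (0.067%). The motif reads the same on both strands. The 250 bases upstream of both starts are shown because these are the only windows of the 10 genes with a full site. They are written 5′ to 3′ on the gene's strand, with the site in capitals, from chr17:29090729-29090978 (+ strand) for Cdkn1a and from chr11:40755287-40755536 (− strand) for Ccng1.

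Cdkn1a: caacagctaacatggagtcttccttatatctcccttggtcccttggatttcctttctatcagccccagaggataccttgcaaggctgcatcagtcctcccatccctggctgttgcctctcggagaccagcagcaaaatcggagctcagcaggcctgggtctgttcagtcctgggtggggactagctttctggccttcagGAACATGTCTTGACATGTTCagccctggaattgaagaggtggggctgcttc

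Ccng1: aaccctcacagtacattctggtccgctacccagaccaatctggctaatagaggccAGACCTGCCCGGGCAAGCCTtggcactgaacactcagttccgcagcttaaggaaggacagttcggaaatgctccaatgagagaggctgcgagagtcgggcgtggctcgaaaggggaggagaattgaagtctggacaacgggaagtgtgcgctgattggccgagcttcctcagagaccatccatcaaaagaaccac

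The capitals cover chr17:29090928-29090947 in Cdkn1a and chr11:40755462-40755481 in Ccng1. A single half-site without a mismatch lay in 4 of the 10 windows and in 2745 of all windows (8.36%). Besides Cdkn1a and Ccng1, it was found upstream of Mdm2 (GAACTTGCCT, chr10:117710935-117710944, − strand) and upstream of Trp53 (GGACTTGCCC, chr11:69580284-69580293, + strand). Other motifs were searched on both strands. The FoxO motif GTAAACA lay in 2 of the 10 windows (Mdm2 and Eda2r) and in 3.65% of all windows. The cell cycle motif TTTGAA, known as CHR, lay in 1 (Cdkn2b) and in 17.9% of all, and the ATF4-bound motif TGATGNAA lay in 0 and in 3.97% of all. These are matches of letters in a short window, and p53 sites in introns, such as those known for Mdm2, lie outside it.

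The libraries held 15439123 to 20350539 counted reads, with a median of 18209316, so that 3 counts correspond to 0.146 to 0.242 CPM (counts per 1000000 counted reads, scaled by TMM factors). Nsd2 was at 47.9, 51.2 and 24.6 CPM in Nsd2 f/f replicates 1 to 3 and at 24.2, 10.4 and 20.8 CPM in Nsd2 Vil-KO replicates 1 to 3. The fitted difference was -1.16 on the log2 scale (SE 0.40, unadjusted p = 0.0234) and -1.13 without the libraries with Xist transcripts, and Nsd2 f/f replicate 3 lay close to the highest Nsd2 Vil-KO library. Xist, transcribed from the inactive X chromosome of female cells, was at 347 CPM in Nsd2 f/f replicate 3 and at 204 CPM in Nsd2 Vil-KO replicate 2, and at 0.255 CPM or less in the other 4 libraries. The labels give no sex. Across all genes these 2 libraries stood apart. Their Spearman correlation with the other 4 averaged 0.933, and that among the other 4 averaged 0.981. Mitochondrial genes took 19.6% of the counts in Nsd2 f/f replicate 3 and 5.51% to 9.13% in the other libraries. Epithelial markers (Epcam, keratins, Cdh1, Vil1 and Cldn7) summed to 11358 to 17336 CPM, so the libraries hold the tissue of their label. Goblet cell marker sums did not overlap between the groups. They were at 14098 to 16375 CPM in Nsd2 f/f and 9866 to 11062 CPM in Nsd2 Vil-KO libraries. All 7 of 7 markers had a lower level in Nsd2 Vil-KO libraries, and their middle value on the log2 scale was -0.57. Only 1 of them (Clca1) met the criterion described below, beside 2.96% of all tested genes. The smallest adjusted p among these markers in edgeR was 0.999. Of single tested genes, 9.9% likewise showed no overlap between the groups. Neutrophil markers ranged from 10.1 to 1000 CPM, with the highest sums in Nsd2 Vil-KO replicate 2 and in Nsd2 f/f replicate 1 (664 CPM). Sums for other cells were 27.1 to 176 CPM for leukocytes in general, 7.92 to 33.8 for T cells, 6.05 to 49 for B and plasma cells, 5.41 to 97.6 for macrophages, 6.79 to 267 for fibroblasts and muscle and 0.777 to 4.51 CPM for endothelium. The highest sums of leukocytes, macrophages, fibroblasts and endothelium were those of Nsd2 f/f replicate 1. Differences of the 10 genes and medians of the gene lists are given with and without the libraries with Xist transcripts.

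None of the 10 genes met the screening criterion of the study's results, which asks for a fold change above 1.2 and a p below 0.05, read here as unadjusted. Since the study's methods ask for an adjusted p below 0.05, that count follows too. All 10 passed the filter on low counts and 0 met the criterion. In Nsd2 Vil-KO libraries, 7 of the 10 were higher and 3 lower. By comparison, 434 of the 14650 tested genes met it (2.96%), 221 of them with a higher level (1.51%) and 213 with a lower level (1.45%) in Nsd2 Vil-KO mice. With edgeR's quasi-likelihood test and a Benjamini-Hochberg adjusted p below 0.05, 0 of 14650 genes (0%) and 0 of the 10 passed, and the adjusted p was 0.999 for each of the 10. An unadjusted p below 0.05 was reached by 434 genes, and DESeq2 passed 4 genes by its adjusted p. The CPM of the groups overlapped for all 10, while they did not overlap for 1451 of the tested genes (9.9%). The median log2 fold change was 0.07 over the 10 genes and 0.00 over all tested genes, and the median size of the change, regardless of sign, was 0.20 against 0.23. In the 4 libraries without Xist transcripts, 0 of the 10 met the criterion, against 10.9% of the 15030 genes tested there.

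**Figure D1:**
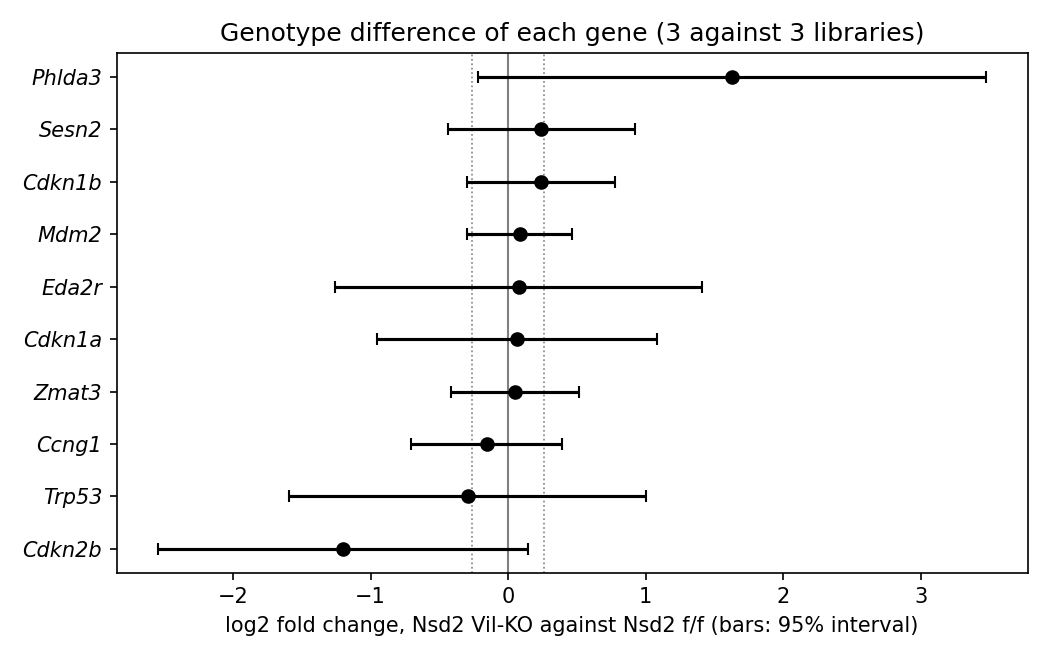
Points give the log2 fold change of each gene in Nsd2 Vil-KO against Nsd2 f/f mice and bars its 95% interval from edgeR, with dotted lines at a fold of 1.2 in either direction. All 10 intervals include 0, and they are narrowest for Mdm2 and widest for Phlda3.

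Levels were compared between genes as RPKM, CPM per kilobase of exon, over all 6 libraries. Cdkn1a had the highest median at 54.5 RPKM (range 41.7 to 102.1). It was followed by Ccng1 at 24.1 (20.2 to 34.2), Cdkn2b at 22.6 (15.4 to 87.5), Cdkn1b at 18.8 (13 to 22), Trp53 at 13.3 (2.81 to 15) and Mdm2 at 8.85 RPKM (7.55 to 9.64). Sesn2 at 3.06 (2.39 to 3.89), Phlda3 at 2.31 (1.09 to 11.6) and Zmat3 at 1.38 RPKM (1.27 to 1.5) were lower, and Eda2r was the lowest at 0.098 RPKM (0.052 to 0.132). Between neighbours in this order, the ranges separated Cdkn1a from Ccng1, Mdm2 from Sesn2, and Zmat3 from Eda2r. The other neighbours overlapped, and the range of Cdkn2b also reached into that of Cdkn1a.

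The 10 genes differed in how much they varied between libraries. The highest CPM divided by the lowest was below 2 for 5 of the 10 genes, as for 44.2% of tested genes, with a median of 2.07 over the 10 and 2.17 over all tested genes. Zmat3 (1.19) and Mdm2 (1.28) were among the steadiest genes measured, with smaller ratios in only 1.49% and 4.75% of tested genes. Phlda3 (10.6), Cdkn2b (5.69) and Trp53 (5.32) lay at the other end, with smaller ratios in 90.6%, 83.3% and 82.1%. For 7 of the 10 the highest library was one with Xist transcripts, as for 52.4% of tested genes, and for 5 of the 10 the lowest was, as for 54.7%.

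**Figure D2:**
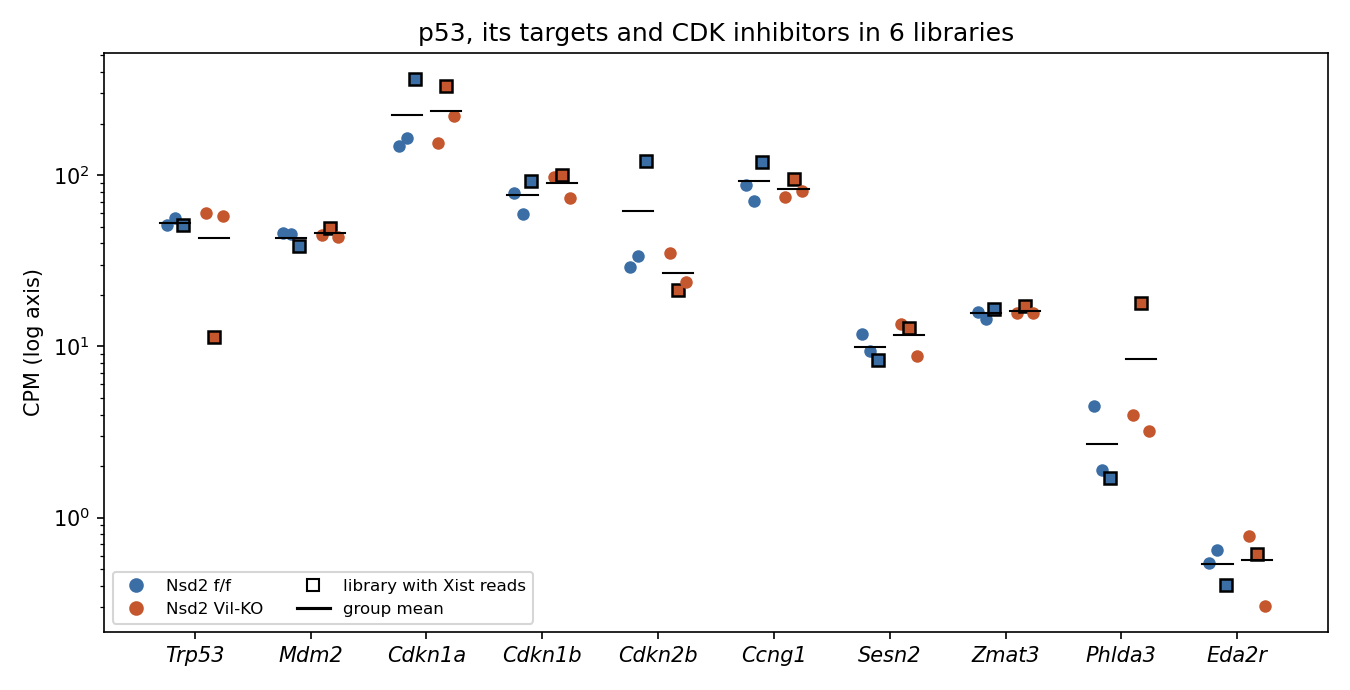
CPM of the 10 genes on a log axis, with circles or squares for the 3 Nsd2 f/f and the 3 Nsd2 Vil-KO libraries, outlined squares for the libraries with Xist transcripts and bars for group means. The groups overlap for every gene, and single squares lie far from the rest for Trp53, Cdkn2b and Phlda3.

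Trp53 encodes p53 itself (ENSMUSG00000059552, chr11:69580359-69591873, + strand, GRCm38). It was at 51.4, 56.4 and 50.8 CPM in Nsd2 f/f replicates 1 to 3 and at 60.5, 11.4 and 57.4 CPM in Nsd2 Vil-KO replicates 1 to 3. Thus 5 libraries agreed within 50.8 to 60.5 CPM and Nsd2 Vil-KO replicate 2 fell far below them, at 0.202 times their median. In that library, 5.21% of tested genes were as low or lower relative to the other 5. The control mean was 52.9 ± 3.09 CPM (SD, n = 3), and that of Nsd2 Vil-KO was 43.1 ± 27.5 CPM (SD, n = 3). On the log2 scale the fold change was -0.30 (SE 0.55, 95% interval -1.59 to 1.00) with an unadjusted p of 0.607, and the two-sided exact permutation test over the 10 splits, whose smallest possible p is 0.1, gave p = 1. Over the 4 libraries lacking Xist transcripts the difference was 0.14, and without Nsd2 Vil-KO replicate 2 alone it was 0.16, so the sign rests on that library. Crypt base stem cell markers moved with it. Their sum over 6 markers was 31.8 CPM in Nsd2 Vil-KO replicate 2, 208 and 217 CPM in the other Nsd2 Vil-KO libraries and 116 to 231 CPM in Nsd2 f/f, and Lgr5 was at 0.111 CPM there. Their part in the value of Trp53 was not tested, and in bulk RNA fewer cells of a type and less RNA per cell cannot be told apart. Of the genes beside Trp53, chosen after its values were seen, Wrap53 was at 8.77 CPM in Nsd2 Vil-KO replicate 2 and 12.3 to 16.4 CPM in the others, and Fxr2 was at 60.4 and 49.0 to 64.4 CPM. The remaining tested neighbours were low. In Nsd2 Vil-KO replicate 2, Efnb3 had its lowest level (0.222 CPM), and Sat2 and Dnah2 had their highest (3.22 and 0.943 CPM).

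Mdm2, the ligase that degrades p53 (ENSMUSG00000020184, chr10:117688875-117710758, − strand), was at 46.0, 45.3 and 38.4 CPM in Nsd2 f/f replicates 1 to 3. It was at 44.7, 49.0 and 43.8 CPM in Nsd2 Vil-KO replicates 1 to 3. All 6 values lay close together, including that of Nsd2 Vil-KO replicate 2, where Trp53 was low. The log2 fold change was 0.08 (SE 0.16), and its 95% interval, -0.30 to 0.47, corresponds to 0.813 to 1.38 fold. This was the narrowest interval of the 10 genes, and the exact permutation test gave p = 0.6. Without the libraries with Xist transcripts the difference was -0.04.

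Among the CDK inhibitors, Cdkn1a, which encodes p21 and is the best-known p53 target in cell cycle arrest (ENSMUSG00000023067, chr17:29090976-29100727, + strand), was at 148, 165 and 363 CPM in Nsd2 f/f replicates 1 to 3. It was at 155, 330.3 and 222 CPM in Nsd2 Vil-KO replicates 1 to 3. The highest value of each genotype came from its library with Xist transcripts, 2.20 times the median of the other 5 in Nsd2 f/f replicate 3 and 2 times in Nsd2 Vil-KO replicate 2. In these libraries 5.77% and 10.2% of tested genes were as high or higher on the same measure. Cdkn1a differed by 0.06 on the log2 scale (SE 0.43, 95% interval -0.95 to 1.08, unadjusted p = 0.884). This value was 0.27 over the 4 libraries, 0.59 when Nsd2 f/f replicate 3 was left out and -0.26 when Nsd2 Vil-KO replicate 2 was, with the criterion unmet each time. A transcript listed as to be experimentally verified on the opposite strand, AC167363.2, shares 273 exon bases with Cdkn1a and was at 0.817 CPM or less. Proliferation markers were lowest in the libraries with Xist transcripts, where Cdkn1a was highest. The 12 markers summed to 340.3 CPM in Nsd2 f/f replicate 3 and 592 CPM in Nsd2 Vil-KO replicate 2, and to 1090.1 to 1385 CPM in the other 4 libraries. Among those 4, the highest sum was that of Nsd2 Vil-KO replicate 3, where Cdkn1a was at 222 CPM, above the 148 to 165 CPM of the rest. The part of dividing cells in the level of Cdkn1a was not tested.

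Cdkn1b encodes p27, an inhibitor that is held in check mainly by degradation through the SCF-Skp2 ligase (ENSMUSG00000003031, chr6:134920401-134925513, + strand). It was at 78.4, 59 and 92.6 CPM in Nsd2 f/f replicates 1 to 3 and at 98.1, 100.2 and 73.1 CPM in Nsd2 Vil-KO replicates 1 to 3. The Nsd2 Vil-KO values spread from below the middle of the controls to above all of them. Cdkn1b differed by 0.24 on the log2 scale (SE 0.23, 95% interval -0.30 to 0.78, unadjusted p = 0.328). The difference was 0.33 without the libraries with Xist transcripts, and it stayed positive under each of 18 other settings, between 0.08 and 0.40. It met the criterion in 0 of the 17 that include a test.

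Cdkn2b encodes p15, the INK4 inhibitor that TGF-beta induces through Smad proteins (ENSMUSG00000073802, chr4:89306299-89311039, − strand). It was at 29.2, 33.6 and 122 CPM in Nsd2 f/f replicates 1 to 3 and at 34.9, 21.4 and 23.8 CPM in Nsd2 Vil-KO replicates 1 to 3. Nsd2 f/f replicate 3 was 4.17 times the median of the other 5 libraries, a distance reached by 1.07% of tested genes in that library, and the other 5 overlapped. The control mean was 61.4 ± 52.1 CPM (SD, n = 3), and that of Nsd2 Vil-KO was 26.7 ± 7.22 CPM (SD, n = 3). The log2 fold change was -1.20 (SE 0.57, 95% interval -2.54 to 0.14, unadjusted p = 0.0726), and the exact permutation test gave p = 0.3. Without Nsd2 f/f replicate 3 it was -0.23, and over the 4 libraries it was -0.08. Among 17 other settings with a test, it met the criterion only with DESeq2 (-1.21) and after leaving out Nsd2 f/f replicate 1 (-1.54) or Nsd2 f/f replicate 2 (-1.49). Markers of mature colonocytes, 7 of 7 detected, moved with Cdkn2b in Nsd2 f/f replicate 3. They summed to 7218 CPM there, 2653 and 2748 CPM in the other Nsd2 f/f libraries and 2480.1 to 3600.1 CPM in Nsd2 Vil-KO libraries, and the share of mitochondrial counts was highest in the same library. The part of either in the level of Cdkn2b was not tested.

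**Figure D3:**
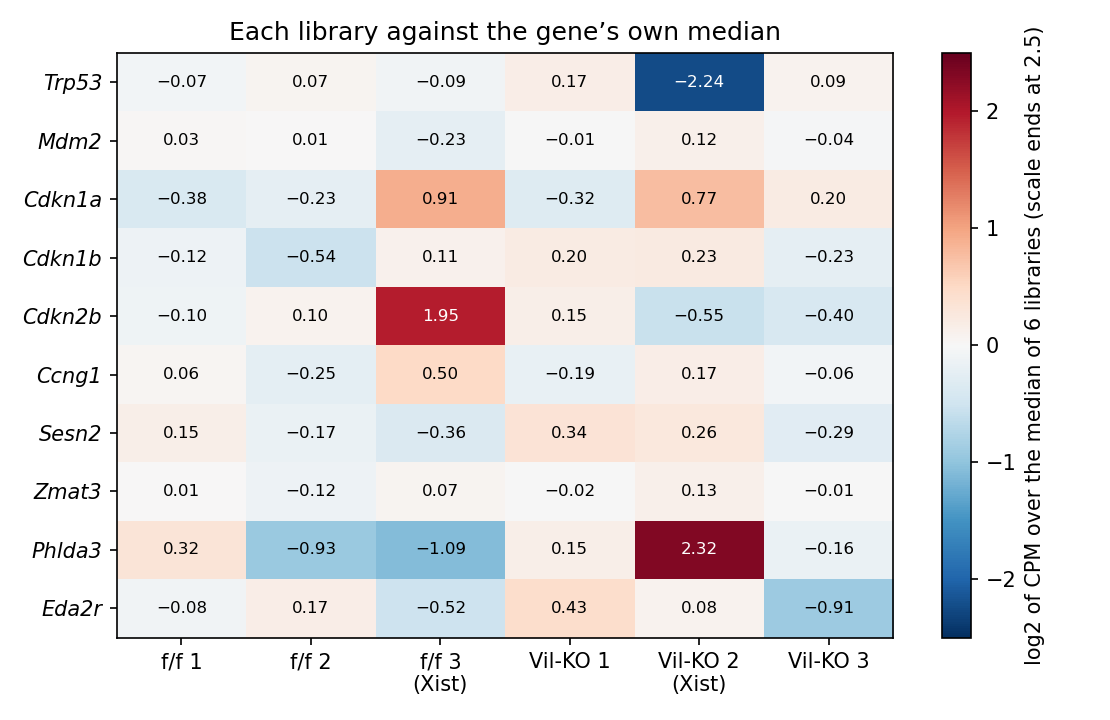
Colour and number give, for each gene and library, the log2 of CPM over the gene's median of 6 libraries. The strongest departures are Phlda3 (2.32) and Trp53 (-2.24) in Nsd2 Vil-KO replicate 2 and Cdkn2b (1.95) in Nsd2 f/f replicate 3, while the rows of Mdm2 and Zmat3 stay within 0.23 of their medians.

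Among the other p53 targets, Ccng1, a cyclin-like protein that recruits a phosphatase to Mdm2 (ENSMUSG00000020326, chr11:40748552-40755311, − strand), was at 88.0, 71.0 and 120.0 CPM in Nsd2 f/f replicates 1 to 3. It was at 74.4, 95 and 81.2 CPM in Nsd2 Vil-KO replicates 1 to 3, within the range of the controls. Ccng1 differed by -0.15 (SE 0.23, 95% interval -0.70 to 0.39) on the log2 scale, and by 0.07 without Nsd2 f/f replicate 3. Over the 4 libraries it was -0.02. Cdkn1a and Ccng1, whose full p53 sites are printed above, were both highest in Nsd2 f/f replicate 3, as were 23.7% of tested genes. Mdm2, Sesn2 and Phlda3 were lowest in that library, as were 25.5% of tested genes.

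Sesn2, a stress-induced leucine sensor that restrains mTORC1 and also answers to ATF4 (ENSMUSG00000028893, chr4:132492032-132510501, − strand), was at 11.8, 9.45 and 8.32 CPM in Nsd2 f/f replicates 1 to 3. It was at 13.5, 12.8 and 8.74 CPM in Nsd2 Vil-KO replicates 1 to 3. The highest pair came from Nsd2 Vil-KO libraries, yet the third lay below the middle of the controls. Sesn2 differed by 0.24 on the log2 scale (SE 0.29, 95% interval -0.44 to 0.92, unadjusted p = 0.433), and by 0.07 over the 4 libraries.

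Zmat3, an RNA-binding zinc finger protein that acts downstream of p53 (ENSMUSG00000027663, chr3:32334792-32366014, − strand), was at 15.9, 14.5 and 16.6 CPM in Nsd2 f/f replicates 1 to 3. It was at 15.6, 17.2 and 15.7 CPM in Nsd2 Vil-KO replicates 1 to 3. The 6 values were nearly level. Zmat3 differed by 0.05 on the log2 scale (SE 0.20), also over the 4 libraries, and the 95% interval of -0.42 to 0.51 corresponds to 0.749 to 1.43 fold.

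Phlda3, a pleckstrin homology protein that competes with Akt for membrane lipids (ENSMUSG00000041801, chr1:135766119-135769136, + strand), was at 4.51, 1.89 and 1.70 CPM in Nsd2 f/f replicates 1 to 3. It was at 4, 18.0 and 3.22 CPM in Nsd2 Vil-KO replicates 1 to 3, from 82, 325 and 63 counts. Nsd2 Vil-KO replicate 2 was 5.60 times the median of the other 5, a distance reached by 1.26% of tested genes in that library, while the other Nsd2 Vil-KO libraries lay inside the range of the controls. The log2 fold change of 1.63 (SE 0.78, 95% interval -0.22 to 3.48) was the largest of the 10 genes, with an unadjusted p of 0.0756, and the exact permutation test gave p = 0.3. This value was 0.41 without Nsd2 Vil-KO replicate 2 and 0.18 over the 4 libraries. It met the criterion with DESeq2 (1.64), without a filter on low counts (1.63) and after leaving out Nsd2 f/f replicate 1 (2.22) or Nsd2 Vil-KO replicate 3 (2.02). Neutrophil markers also peaked in Nsd2 Vil-KO replicate 2, with a sum over 6 markers of 1000 CPM against 35.2 and 103 CPM in the other Nsd2 Vil-KO libraries and 10.1 to 664 CPM in Nsd2 f/f. S100a8 was at 574 CPM there, whereas the neutrophil receptor Csf3r was at 0.666 CPM. The sum of general leukocyte markers was 85.6 CPM in that library and 176 CPM in Nsd2 f/f replicate 1, its highest. Between the genotypes, 4 of the 6 neutrophil markers had a negative difference and 2 a positive one, with a median of -1.21. The high sum in Nsd2 Vil-KO replicate 2 is thus not shared by the whole list. Whether neutrophils had a part in the level of Phlda3 was not tested.

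Eda2r, the receptor for the A2 form of ectodysplasin and a p53 target on the X chromosome (ENSMUSG00000034457, chrX:97333840-97377216, − strand), was close to the limit of detection. Its counts were 11, 11 and 5 in Nsd2 f/f replicates 1 to 3 and 16, 11 and 6 in Nsd2 Vil-KO replicates 1 to 3, which is 0.307 to 0.780 CPM. Eda2r differed by 0.08 on the log2 scale (SE 0.56), and by -0.11 over the 4 libraries. The 95% interval of -1.26 to 1.41 corresponds to 0.419 to 2.65 fold. The libraries with Xist transcripts, at 0.404 and 0.610 CPM, lay within the range of the others.

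**Figure D4:**
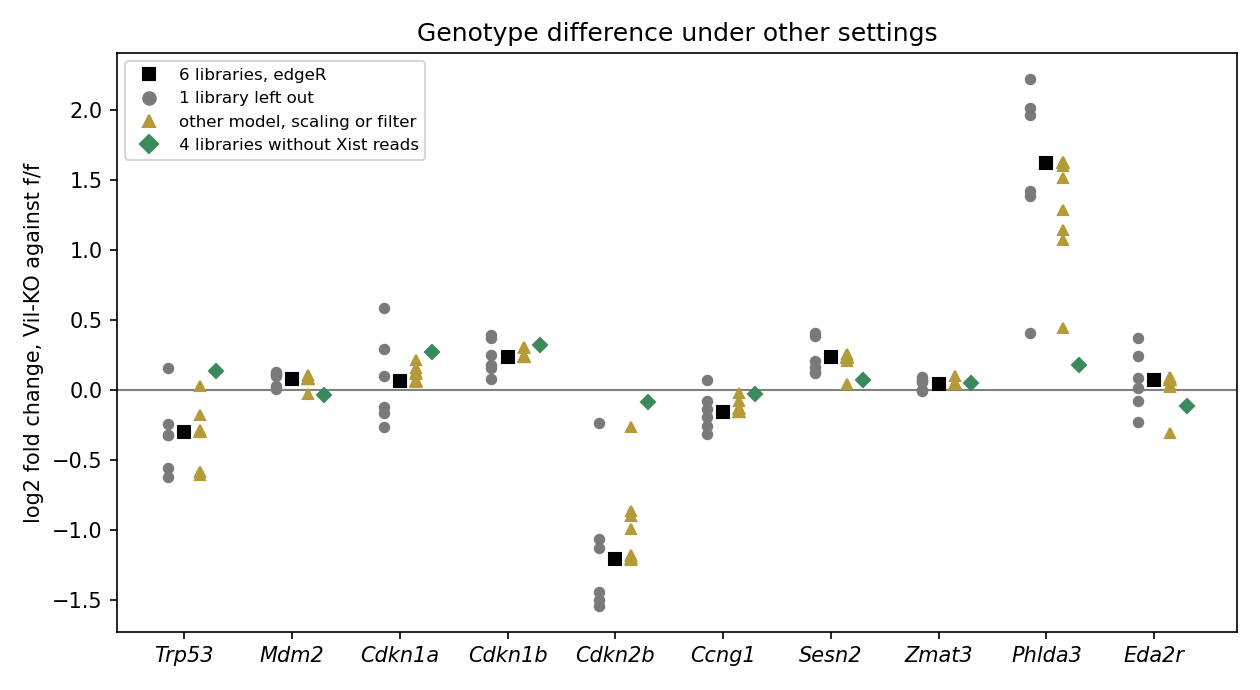
Each symbol is the log2 fold change of a gene under one setting, with squares for the 6 libraries in edgeR, circles for 1 library left out, triangles for another model, scaling or filter, and diamonds for the 4 libraries without Xist transcripts. Cdkn2b and Phlda3 move towards 0 in the 4 libraries, to -0.08 and 0.18, while Cdkn1b stays between 0.08 and 0.40.

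The wider p53 response was read from 32 other p53 targets, of which 31 were tested. In Nsd2 Vil-KO libraries 15 were higher and 16 lower, 0 met the criterion, and the median log2 fold change was -0.04, or -0.02 over the 4 libraries. The 2 with the smallest p were Ak1 and Abhd4. Ak1, an adenylate kinase, was at 5.99 CPM in Nsd2 Vil-KO replicate 2 and at 0.768 to 1.24 CPM in the other 5 libraries. Its difference of 1.37 (SE 0.86) became -0.18 without that library. Abhd4, a lipase, differed by 0.40 (SE 0.26), and by 0.17 without that library. On all 6 libraries Abhd4 met the criterion with scaling by library size only (0.46), with limma-voom (0.39) and with Xist as a covariate (0.40). In the 4 libraries without Xist transcripts, 3 of 31 met the criterion, against 10.9% of all genes tested there. Named after their values were seen, these were Abhd4 (0.40), the spindle protein Psrc1 (0.76) and the adhesion molecule Ninj1 (-0.45). Trp53cor1 was filtered out. Of 20 regulators and relatives of p53, 18 were tested, 8 higher and 10 lower, with 0 past the criterion and a median of -0.02, or 0.07 over the 4 libraries. Hipk2, a kinase that phosphorylates p53, was at 13.6 CPM in Nsd2 Vil-KO replicate 2 and at 3.96 to 6.05 CPM in the other 5. Its difference of 0.87 (SE 0.46) was 0.30 without that library and 0.48 over the 4 libraries, and it met the criterion only with Xist as a covariate (0.75) among 17 alternative settings. The adaptor Daxx differed by -0.38 (SE 0.28), and by -0.05 without Nsd2 f/f replicate 2, its highest library. Over the 4 libraries, 1 of 18 met the criterion, the ribosomal protein Rpl5 (-0.45), which binds Mdm2. The p53 relatives Trp63 and Trp73 were too low to test.

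The 22 promoters with a full p53 site allow a second reading that rests on sequence alone. They belong to 22 genes, of which 15 are in the table and 8 were tested, Cdkn1a and Ccng1 included. Among the 8, Nsd2 Vil-KO libraries had 4 higher and 4 lower, and the median log2 fold change was -0.04. The 1 of 8 past the criterion, beside 2.96% of all tested genes, was the antisense gene Gm15987, named after its values were seen. Gm15987 differed by 2.55 (SE 0.65, adjusted p 0.999 in edgeR), from 4 to 123 counts per library. The difference was 2.04 over the 4 libraries, where 10.9% of all genes met the criterion. Gm15987 was low in every library. It was at 1.24, 0.827 and 0.323 CPM in Nsd2 f/f and at 2.24, 5.82 and 6.28 CPM in Nsd2 Vil-KO replicates 1 to 3. Whether the counting used strand is not given in the sources used here, so its reads and those of a gene opposite cannot be told apart.

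The other CDK inhibitors, the CDKs and cyclins, the SCF-Skp2 ligase, the RB, E2F and DREAM genes and the proliferation markers held 0 genes past the criterion in the 6 libraries. Of the other CDK inhibitors 3 of 4 were tested, with a median of 0.18, or -0.08 over the 4 libraries. Among them were Cdkn1c at -0.61 (SE 0.60) and Cdkn2d at 0.19 (SE 0.34), or -0.10 and -0.08 over the 4 libraries, while Cdkn2a was at 0.166 CPM or less in every library. Of 11 CDKs and cyclins, 6 were higher and 5 lower with a median of 0.06, or -0.04 over the 4 libraries, and Cdk6 (-0.48, SE 0.26) and Ccne2 (-0.74, SE 0.57) had the smallest p. In the 4 libraries without Xist transcripts, 4 of these 11 met the criterion, against 10.9% of all genes. They were cyclin D1 (Ccnd1, 0.62), cyclin D2 (Ccnd2, -0.71), Cdk6 (-0.64) and cyclin E2 (Ccne2, -0.76). Over the 6 libraries Ccnd1 differed by 0.54 and Ccnd2 by -0.23, with the criterion unmet. In the 4 libraries, 0 of all tested genes passed an adjusted p below 0.05. Ccnd1 was at 78.8 and 66.7 CPM in Nsd2 f/f and at 92.9 and 130.0 CPM in Nsd2 Vil-KO in these libraries, and Ccnd2 at 153 and 195 against 104 and 108 CPM. In the libraries with Xist transcripts, Nsd2 f/f replicate 3 and Nsd2 Vil-KO replicate 2, Ccnd1 was nearly level at 28.1 and 29.2 CPM and the order of Ccnd2 was turned, at 73 and 148 CPM. Of the 5 subunits of the SCF-Skp2 ligase, which degrades p27, 2 were higher and 3 lower with a median of -0.06, or -0.15 over the 4 libraries. Cks1b differed by 0.24 (SE 0.45), and by -0.14 without Nsd2 f/f replicate 3, and Skp1a by -0.23 (SE 0.25). RB, E2F and DREAM complex genes, through which p21 silences the cell cycle, were higher in 12 and lower in 6 of 18, with a median of 0.08, or 0.13 over the 4 libraries. Lin37 differed by -0.32 (SE 0.28) and E2f4 by -0.21 (SE 0.20), which were -0.05 and -0.06 over the 4 libraries. Over the 4 libraries 1 of them met the criterion, E2f2 (0.35), and 0 of the ligase subunits and 0 of the other CDK inhibitors did. Proliferation markers were higher in 8 and lower in 4 of 12, with a median of 0.34, and 0 met the criterion in the 6 or in the 4 libraries. The median was 0.11 over the 4 libraries, -0.09 when Nsd2 f/f replicate 3 was left out and -0.03 when Nsd2 Vil-KO replicate 3 was, so its sign rests on single libraries. Cdc20, which activates the anaphase ligase, and Rrm2, a subunit of ribonucleotide reductase, were both at 0.52 (SE 0.49 and 0.54), and at 0.12 and 0.08 without Nsd2 f/f replicate 3.

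Tgfbr1 and Smad3, of the list of TGF-beta, Myc and FoxO inputs to Cdkn1a, Cdkn1b and Cdkn2b, met the criterion with opposite signs. Tgfbr1, the type I TGF-beta receptor, was at 20.7, 21.7 and 18.9 CPM in Nsd2 f/f and at 9.02, 13.5 and 12.0 CPM in Nsd2 Vil-KO replicates 1 to 3. Every Nsd2 Vil-KO library lay below every control, at a log2 fold change of -0.83 (SE 0.23, unadjusted p = 0.00905). Over the 4 libraries this was -1.01, and the criterion was met in all 17 alternative settings, from -1.01 to -0.68. Smad3, the signal carrier of that receptor, was at 57.6, 59 and 53.2 CPM in Nsd2 f/f and at 80.6, 86.7 and 71.0 CPM in Nsd2 Vil-KO replicates 1 to 3. Every Nsd2 Vil-KO library lay above every control, at 0.49 (SE 0.16, unadjusted p = 0.0167). This value was 0.39 over the 4 libraries. Smad3 missed the criterion after leaving out Nsd2 f/f replicate 1 (0.50) or Nsd2 Vil-KO replicate 1 (0.48). Neither passed the adjusted p of 0.05. Of the 14 genes on this list 12 were tested, 8 higher and 4 lower, with a median of 0.07, or 0.06 over the 4 libraries. The 2 of 12 past the criterion stand beside 2.96% of all tested genes. Over the 4 libraries 4 of 12 met it, Smad7 (0.58) and Foxo1 (0.38) besides, beside 10.9% of all genes. Goblet cell marker sums, like Tgfbr1 and Smad3, did not overlap between the genotypes, which held for 9.9% of tested genes. The part of goblet cells in the levels of Tgfbr1 and Smad3 was not tested.

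**Figure D5:**
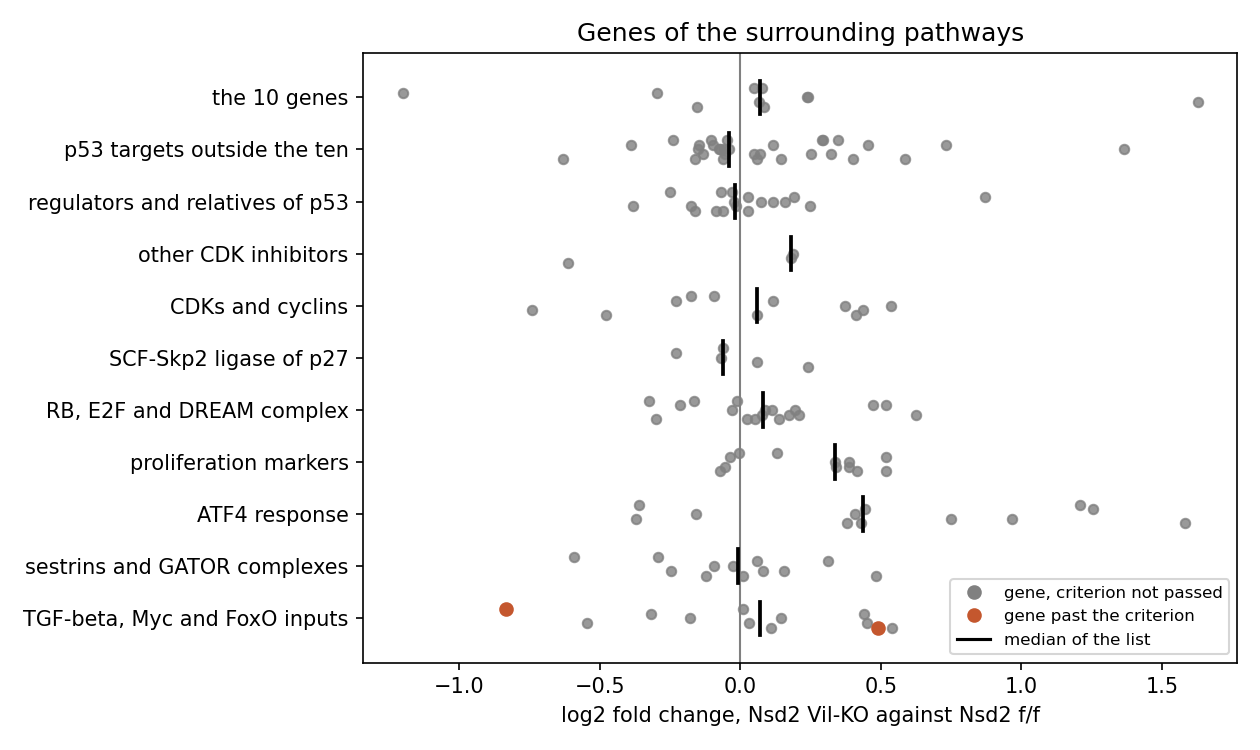
Each point is a tested gene, placed by its log2 fold change in Nsd2 Vil-KO against Nsd2 f/f mice in the 6 libraries, with a black bar at the median of each list. Only Tgfbr1 (-0.83) and Smad3 (0.49), in colour, pass the criterion, and the medians lie between -0.06 and 0.44.

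Of 12 genes of the ATF4 response, the arm of the stress response that also induces Sesn2, Nsd2 Vil-KO libraries had 9 higher and 3 lower, with a median of 0.44 and 0 past the criterion. Chac1, which breaks down glutathione, was at 1.44, 2.42 and 0.646 CPM in Nsd2 f/f and at 4, 4.22 and 2.66 CPM in Nsd2 Vil-KO replicates 1 to 3. Its difference of 1.26 (SE 0.55) was 0.80 over the 4 libraries, and Chac1 met the criterion with DESeq2 (1.25), with Xist as a covariate (1.35) and without Nsd2 f/f replicate 2 (1.78). Slc7a11, the cystine transporter, was at 38.9 CPM in Nsd2 Vil-KO replicate 2 and at 3.64 to 14.6 CPM in the others. Its difference of 1.21 (SE 0.79) was 0.08 without that library and -0.25 over the 4 libraries. The list's summed level was highest in Nsd2 Vil-KO replicate 2 at 1217 CPM, against 526 and 593 CPM in the other Nsd2 Vil-KO libraries and 424 to 719 CPM in Nsd2 f/f. The median of the list was -0.03 without Nsd2 Vil-KO replicate 2 and -0.25 over the 4 libraries. There, 2 of 12 met the criterion as lower, Atf4 (-0.33) and Asns (-0.39), beside 10.9% of all genes. A list of 12 genes held the other sestrins, the Castor genes and the GATOR subunits, which link Sesn2 to mTORC1. Of these 12, 6 were higher and 6 lower with a median of -0.01, or 0.03 over the 4 libraries. Mios differed by 0.31 (SE 0.23) and Nprl2 by -0.59 (SE 0.38), which were 0.19 and -0.14 over the 4 libraries, and 0 met the criterion in the 6 or in the 4 libraries. The EDA ligand list, Eda, Edar and Edaradd, was too low to test, and Edar had no count in any library.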

How the data were processed

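RNA was measured in 6 libraries of colon IECs from DSS-treated mice, 3 per genotype, grouped by the sample labels. The deposited values are raw counts per gene, whole numbers to which the authors applied no normalisation. Per the study's methods, polyA RNA was sequenced in paired ends from directional libraries, trimmed, and aligned with HISAT2 to GRCm38 (mm10 in the submitters' processing notes). The labels name another library kit, and the study quantified FPKM with StringTie, which were not used here. The program behind the deposited counts, and whether it used strand, is not given in the sources used here. Overlapping genes can therefore share reads. All columns of the table were used.

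Genotypes were compared with edgeR 4.0.16 under R 4.3.3 (TMM factors, filterByExpr by genotype, robust quasi-likelihood test without covariates, Benjamini-Hochberg adjustment over 14650 tested genes of 26360 with a count). The call followed the screening criterion of the study's results, with its p read as unadjusted, and the adjusted p named in the methods was counted beside it. The biological coefficient of variation was 41.25%. Exact permutation tests used mean log2(CPM + 1). RPKM used exon lengths of GENCODE vM21, which held 99.4% of listed genes. The test was checked on simulated counts. Alternatives covered scaling, filter, model (DESeq2 1.42.0, limma 3.58.1 voom), a replicate block, Xist as a covariate and libraries left out. No batch is given in the labels.

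The 10 genes, the gene lists and the alternatives were chosen with earlier results of these data known. Named genes were the 10, Nsd2, Xist and, in each pathway list, those past the criterion (at most 5) or otherwise the 2 with the smallest p. Clca1, Lgr5, S100a8 and Csf3r, from the marker lists, and genes named as past the criterion in the 4 libraries fall outside this rule. Other exceptions are described in the text. Figures were drawn with matplotlib 3.10.9.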

Additional observations from a re-analysis of the deposited data

How the results depend on the processing

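The number of genes past the criterion, 434 as reported above, was 684 without a filter on low counts, 633 with DESeq2 and 1421 with limma-voom. It was 267 with a replicate block, 1082 with Xist as a covariate, 1636 in the 4 libraries without Xist transcripts and 266 to 719 with a library left out. With an adjusted p as the call it was 0, and DESeq2 passed 4 genes at that limit. Of the 10 genes, 0 met the criterion as reported above, 1 without a filter (Phlda3), 2 with DESeq2 (Cdkn2b and Phlda3) and 0 to 2 with a library left out. Of 179 values of the 10 genes, 14 changed sign. With limma-voom these were Eda2r (-0.30), Mdm2 (-0.028) and Trp53 (0.034), and in the 4 libraries Eda2r (-0.11), Mdm2 (-0.035) and Trp53 (0.14). With a library left out, Ccng1 ranged from -0.31 to 0.074, Cdkn1a from -0.26 to 0.59, Eda2r from -0.23 to 0.37, Trp53 from -0.62 to 0.16 and Zmat3 from -0.0013 to 0.094. The cause was not tested. With a filter of at least 10 counts in each library Eda2r gave no value. The labels do not say whether the shared replicate numbers pair the libraries. Deviations from the group means correlated at 0.32, -0.35 and -0.11 for numbers 1 to 3, and 2 of 6 libraries correlated best with their own number. These values cannot decide it, because the libraries that stood apart carry number 3 in Nsd2 f/f and 2 in Nsd2 Vil-KO. The replicate block called 0 of the 10 genes and left Smad3 short of the criterion (0.49), while Chac1 met it (1.41). Medians of the gene lists other than the TGF-beta, Myc and FoxO inputs took both signs over the settings tried. With a library left out, they ranged from -0.19 to 0.41 for CDKs and cyclins, from -0.19 to 0.49 for other CDK inhibitors, from -0.09 to 0.63 for proliferation markers and from -0.03 to 0.93 for the ATF4 response. Eda2r is limited by its counts.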
